A study of Mus musculus with 4 samples.

Results

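The genes described are 10 regulators of epithelial and mesenchymal cell state, chosen by name from the 48425 genes of the deposited table: Snai1, Snai2, Zeb1, Zeb2, Twist1, Twist2 and Prrx1 on the mesenchymal side and Grhl2, Ovol2 and Esrp1 on the epithelial side. All 10 are in the table. They were measured by RNA-seq in mesothelial cells, the single cell layer that lines the peritoneal cavity, of 4 untreated wild type C57BL/6 mice that were 10 weeks old. The 4 animals gave 1 library each and form a single group, and the labels give neither sex nor batch. The cells were released from the emptied cavity by trypsin for 20 min at 37 °C and sorted as CD45-, podoplanin+ and GPM6a+ cells straight after isolation, and their total RNA was depleted of ribosomal RNA. Undigested tissue, other cell types and treated animals were not analysed here, so a level can be compared with a fixed threshold, with other genes of the same animal and across animals.

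Epithelial cells hold together by E-cadherin, tight junctions and desmosomes, and mesenchymal cells are loosely attached and make fibrillar matrix. The Snail and Zeb zinc finger proteins bind the E-box letters CAGGTG and repress epithelial genes, the Twist proteins bind E-boxes as dimers with E proteins, and Prrx1 is a homeodomain factor of mesenchyme. On the other side Grhl2 activates epithelial junction genes, Ovol2 represses Zeb1, and Esrp1 directs epithelial patterns of splicing. Mesothelium arises from mesoderm, carries keratins and microvilli like an epithelium, and is known to give rise to fibroblast-like cells in injury.

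The 4 libraries held 4090224 to 4569578 estimated counts, and CPM are estimated counts per 1000000 of the column sum. Where no count was seen, a level of up to 3 counts is allowed, or 0.657 to 0.733 CPM for a single library and 0.171 CPM for all 4 together. These limits cover counting error only. The labelled cell type was checked on its markers: 12 of 12 mesothelial markers lay above 1 CPM, against 24.7% of all genes. The uroplakin Upk3b led at 4135 ± 236 CPM (SD, n = 4). The keratin Krt19 followed at 2299.6 ± 954 CPM and Msln, the gene of mesothelin, at 2257 ± 393 CPM. Podoplanin and Gpm6a, on which the cells were sorted, are among the 12. The 12 markers summed to 16626, 18215, 16133 and 16540 CPM in animals 1 to 4.

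Zeb1 had the highest CPM of the regulators in every animal, and the epithelial side was nearly absent. The 7 mesenchymal-side genes together held 518, 403, 339 and 317 counts in animals 1 to 4. The 3 epithelial-side genes together held 0, 0, 0 and 1 counts. By edgeR's quasi-likelihood test, one-sided and adjusted over all genes of the table, 5 of the 10 regulators lay above 1 CPM (Zeb1, Zeb2, Twist1, Prrx1 and Snai2), against 24.7% of all genes. None of the 3 epithelial-side genes passed. None passed with limma and voom weights or at an unadjusted p under 0.05 in edgeR either. DESeq2 gave an adjusted p for Grhl2 only, which did not pass. With at most 1 count per gene over the 4 libraries this outcome was fixed in advance, so the other methods add no support. Limma with voom weights called 3 of the 10 (Zeb1, Zeb2 and Twist1), against 23.9% of all genes, and edgeR without animal 2 called the same 3. The 24.7% is taken over all genes, of which 25489 had no count in any animal. DESeq2 called 5 regulators, against 53.1% of the 22591 genes for which it gave an adjusted p. Among genes with at least 10 counts 5 of the 7 mesenchymal-side genes passed, against 81% of all genes kept, so there the regulators did not stand out. The share of all genes called was 24.6% with counts not rounded, 26.8% at a threshold of 0.5 CPM and 22.7% at 2 CPM.

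**Figure D1:**
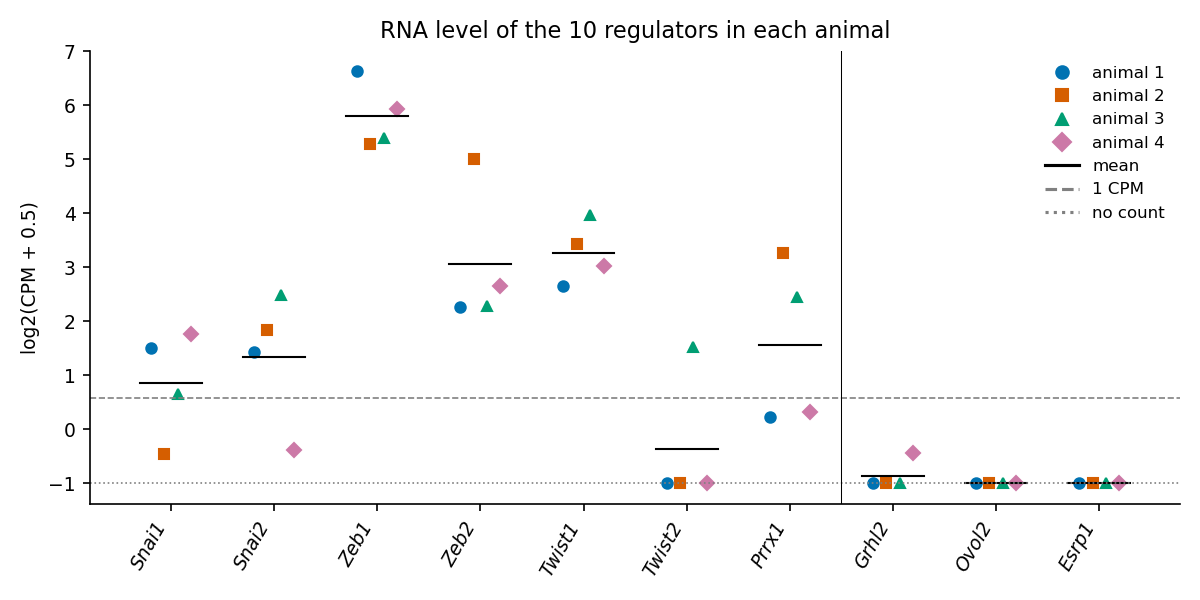
RNA level of each regulator as log2(CPM + 0.5) on the vertical axis, with 1 marker per animal and a bar at the mean of the 4 log2 values. The dashed line is 1 CPM, the dotted line a gene with no count, and the vertical line parts the 7 mesenchymal-side genes from the 3 epithelial-side genes, which lie on or next to the line of no count.

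Zeb1, a zinc finger repressor of E-cadherin, lies on chromosome 18 at 5591860 to 5775467 (GRCm38, GENCODE M21; ENSMUSG00000024238.15). It had 98.2, 38.1, 41.5 and 60.2 CPM in animals 1 to 4, a mean of 59.5 ± 27.6 CPM. All 4 animals were above 1 CPM by a wide margin, and animal 1 was highest (adjusted p = 5.11e-25, edgeR's quasi-likelihood test). The spread between animals was large for a gene of this level: the coefficient of variation was 46.3%, against a median of 17.3% over the 200 genes of nearest mean level, of which 95% varied less. Per length, at 34.3 ± 15.9 CPM per kilobase of mean transcript length, Zeb1 stood above 85.9% of the genes that had a value. This place holds for the mean length of 1736 bases only. With the longest transcript of 5801 bases Zeb1 had 10.3 CPM per kilobase, and its place among genes was not computed for that length.

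Zeb2, the paralog of Zeb1 and also a factor of macrophages and natural killer cells, lies on chromosome 2 at 44983632 to 45117395 (ENSMUSG00000026872.17). It had 4.30, 31.5, 4.35 and 5.79 CPM in animals 1 to 4. Animal 2 stood apart, and the other 3 animals lay close together (mean 11.5 ± 13.4 CPM, adjusted p = 2.08e-11, edgeR's quasi-likelihood test). The coefficient of variation was 116%, against a median of 38.1% over the 200 genes of nearest level, of which 99% varied less. The 12 leukocyte markers summed to 22.3, 5.73, 1.97 and 0.994 CPM in animals 1 to 4. In edgeR's test 0 of 12 lay above 1 CPM, against 24.7% of all genes. The number of markers called was 1 at an unadjusted p under 0.05 in edgeR, and 0 each with DESeq2 and with limma and voom weights. The highest of these markers, the myeloid gene Lyz2, Laptm5 and the B cell gene Cd79a, had 1.58, 3.04 and 0.442 CPM in animal 2. In animal 1 they had 5.73, 3.94 and 5.66 CPM. Named after their values were seen, Ptprc, the gene of CD45, had no count in animal 2, and the macrophage gene Adgre1 had its only count there (0.222 CPM), while Coro1a and Itgam had none in any animal. The part of leukocytes in the Zeb2 values was not tested. The antisense gene Zeb2os shares 172 bases with Zeb2 and had 0.216, 0, 0.252 and 0.915 CPM, with none in animal 2. In the same way an exon of Zeb1 overlaps Gm10125 on the opposite strand over 198 bases, and Gm10125 had 0, 0, 0 and 2.63 CPM.

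Twist1, a basic helix-loop-helix factor of mesoderm, lies on chromosome 12 at 33957671 to 33959829 (ENSMUSG00000035799.6). It had 5.74, 10.3, 15.1 and 7.66 CPM in animals 1 to 4 (mean 9.70 ± 4.05 CPM, adjusted p = 2.05e-12, edgeR's quasi-likelihood test). All 4 animals were above 1 CPM, animal 3 was highest, and the coefficient of variation of 41.7% was close to the median of 39.4% for genes of nearest level. Its paralog Twist2, on chromosome 1 at 91801461 to 91848028 (ENSMUSG00000007805.4), had 0, 0, 2.38 and 0 CPM and did not pass (adjusted p = 0.997, edgeR). All of its 11 counts came from animal 3. Twist2 shares 1468 bases with the antisense gene Gm29100, which had no count. Reads of such opposite-strand partners cannot be told apart without strand, and the strand setting was not given in the sources used here.

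Prrx1, the homeodomain factor, lies on chromosome 1 at 163245119 to 163313710 (ENSMUSG00000026586.16). It had 0.668, 9.05, 4.92 and 0.751 CPM in animals 1 to 4. Animals 2 and 3 were high and animals 1 and 4 were under 1 CPM, so the call rests on part of the animals (mean 3.85 ± 3.99 CPM, adjusted p = 0.000786, edgeR's quasi-likelihood test), and it was lost without animal 2 (adjusted p = 0.290, edgeR) and with limma and voom weights (adjusted p = 0.323). Fibroblast markers were present in every animal, with 11 of 12 above 1 CPM, against 24.7% of all genes, and none at 0. They were led by Col14a1 at 281 ± 99.1 CPM, Fbln1 at 267 ± 100.4 CPM and Lamb1 at 116 ± 23.6 CPM. The summed fibroblast level was 952, 1190, 1251 and 1007 CPM in animals 1 to 4, and the markers did not move as one. Dpt, Mfap5 and Cd248, named after their values were seen, were higher in animals 2 and 3 than in the others, as Prrx1 was: Dpt had 5.30, 16.8, 8.15 and 1.67 CPM, Mfap5 had 72.8, 169, 150.2 and 34.8 CPM, and Cd248 had 56.5, 161, 146 and 49.7 CPM. Dpt, Mfap5 and Cd248 were picked for this likeness, and 4 animals are too few for a correlation. Other listed markers went both ways, and of these all but Fbln1, Col14a1 and Lamb1 were named after their values were seen. Fbln1 was also higher in animals 2 and 3, with 137, 292, 379 and 262 CPM. So were Col15a1, with 3.20, 6.75, 12.8 and 2.89 CPM, and Pi16, with 1.04, 2.15, 2.41 and 0.615 CPM. Animal 3 was below animal 4 for Pdgfra (19.5, 36.5, 21.8 and 24.1 CPM) and below animal 1 for Lamb1 (131, 133, 117 and 81.8 CPM). Col14a1 was lowest in animal 2, with 301, 149, 286 and 388 CPM. Lum and Clec3b were lowest in animal 3, with 87.4, 131, 37.3 and 48.5 CPM and 107, 83.1, 59.7 and 78.3 CPM. The part of fibroblasts in the Prrx1 values was not tested. In bulk samples fewer cells with an RNA and less of it per cell cannot be told apart.

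Both Snail genes were scarce. Snai2, or Slug, on chromosome 16 at 14705852 to 14709385 (ENSMUSG00000022676.7), had 2.18, 3.08, 5.08 and 0.261 CPM in animals 1 to 4. Animal 3 was highest and animal 4 held a single count (mean 2.65 ± 2.0 CPM, adjusted p = 0.0331, edgeR's quasi-likelihood test). That call was lost without animal 2 or animal 3 (adjusted p = 0.0820 and 0.487, edgeR) and with limma and voom weights (adjusted p = 0.425). Snai1, or Snail, on chromosome 2 at 167538195 to 167542814 (ENSMUSG00000042821.7), had 2.34, 0.224, 1.08 and 2.87 CPM, 29 counts in all, and did not pass (mean 1.63 ± 1.20 CPM, adjusted p = 0.501, edgeR). Where Snai1 was highest, in animal 4, Snai2 was lowest, and where Snai1 was lowest, in animal 2, Snai2 had 3.08 CPM. At these counts a single read moves a value by more than 0.2 CPM.

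On the epithelial side, Grhl2, a Grainyhead-like factor on chromosome 15 at 37233036 to 37363569 (ENSMUSG00000022286.16), had 0, 0, 0 and 0.235 CPM, which is 1 count, in animal 4. Ovol2, a zinc finger repressor on chromosome 2 at 144305175 to 144332146 (ENSMUSG00000037279.13), had no count in any animal. Esrp1, the splicing regulator on chromosome 4 at 11331933 to 11386783 (ENSMUSG00000040728.15), had no count either. For Ovol2 and Esrp1 a level of up to 0.171 CPM is allowed by the absence of counts in the 4 libraries, and for the single count of Grhl2 the exact 95% Poisson interval reaches up to 0.317 CPM.

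The order of levels was set per length, since long transcripts collect more counts. After Zeb1 came Twist1 at 5.96 ± 2.48 CPM per kilobase, Zeb2 at 5.25 ± 6.11, Snai2 at 1.31 ± 0.990, Snai1 at 1.00 ± 0.741, Prrx1 at 0.951 ± 0.988 and Twist2 at 0.309 ± 0.618 CPM per kilobase. Zeb1 exceeded Twist1 in 4 of 4 animals, by 2.49 ± 1.17 on the log2 scale. The next neighbours did not differ beyond their spread: Twist1 exceeded Zeb2 in 3 of 4 animals (0.65 ± 1.37), Zeb2 exceeded Snai2 in 3 of 4 (1.81 ± 1.87), Snai2 exceeded Snai1 in 2 of 4 (0.28 ± 2.57), Snai1 exceeded Prrx1 in 2 of 4 (0.29 ± 2.88), and Prrx1 exceeded Twist2 in 3 of 4 (1.86 ± 1.92). The order depends on the transcript length used. With the longest annotated transcript in place of the mean length Zeb1 stood at 10.3, Twist1 at 5.96, Snai2 at 1.31 and Zeb2 at 1.26 CPM per kilobase. Zeb1 then exceeded Twist1 in 3 of 4 animals, by 0.76 ± 1.16 on the log2 scale, which is within the spread, and in animal 3 Zeb1 had 7.15 and Twist1 had 9.26 CPM per kilobase.

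Within the mesenchymal side, over mean transcript lengths, Zeb1 made up 87.4%, 47.1%, 58.6% and 78.6% of the summed CPM per kilobase in animals 1 to 4. It held the largest share in every animal with these lengths, although in animal 2 the other 6 genes together exceeded it, and with the longest transcripts Twist1 was above Zeb1 in animal 3. Zeb2 made up 3.03%, 30.9%, 4.88% and 6.00%, and Twist1 made up 5.45%, 13.6%, 22.7% and 10.7%. With mean lengths the second place thus belonged to Twist1 in animals 1, 3 and 4 and to Zeb2 in animal 2.

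**Figure D2:**
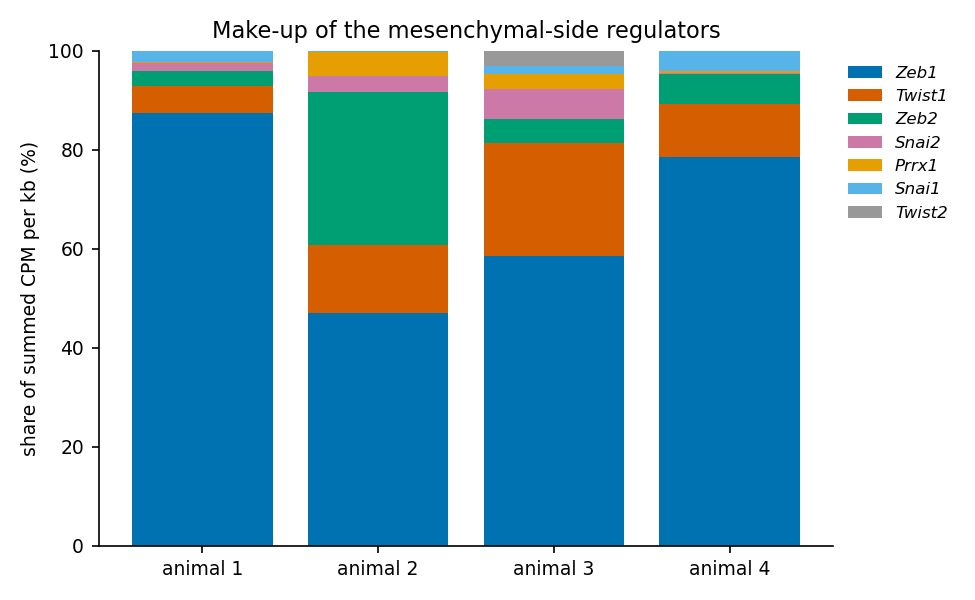
Share of each of the 7 mesenchymal-side genes in their summed CPM per kilobase of mean transcript length, in percent, with 1 stacked bar per animal. Zeb1 fills 47.1% to 87.4% of the bars, and the Zeb2 block fills 30.9% in animal 2 and 3.03% to 6.00% in the other animals.

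Genes of the same family and of opposing function were set against each other within each animal, on log2(CPM per kilobase + 0.1), and tested by flipping signs of the animals (exact permutation, both directions). The smallest p that 4 animals can give rounds to 0.13, so no pair could pass 0.05. Of 10 pairs 9 gave a value, since Ovol1 and Ovol2 both had no count. Zeb1 exceeded Zeb2 by 4.78, 0.60, 3.52 and 3.66 in animals 1 to 4. The direction was the same in all animals, with the smallest gap in animal 2 (mean 3.14 ± 1.78, exact permutation p = 0.13, adjusted 0.188). Twist1 exceeded Twist2 by 5.18, 6.01, 2.81 and 5.59 (mean 4.90 ± 1.43, exact permutation p = 0.13, adjusted 0.188), with Twist2 at 0 in 3 animals, where the gap is set by the pseudocount.

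Zeb1 exceeded each epithelial-side gene in 4 of 4 animals, at the same smallest p (exact permutation p = 0.13, adjusted 0.188 for each). Over the group and per length Zeb1 was at least 574-fold higher than Esrp1 and at least 244-fold higher than Ovol2, computed against 3 counts over the 4 libraries with mean transcript lengths. With the longest transcripts these bounds were 233-fold for Esrp1 and 93.4-fold for Ovol2. Against the single count of Grhl2 the ratio was 1535, with an exact 95% counting interval of 275 to 60699, and 895 (160.4 to 35401) with the longest transcripts. Per mean transcript length the direction of Snai1 minus Snai2 (0.39, -2.77, -1.77 and 3.03) and of Prrx1 minus Prrx2 (-0.68, 1.40, -0.12 and -0.70) differed between animals. On that scale neither family had a member that was higher throughout. Not divided by length, Prrx1 was higher than Prrx2 in 4 of 4 animals. Prrx2 had 0.299, 0.719, 1.22 and 0.335 CPM, against 0.668, 9.05, 4.92 and 0.751 CPM for Prrx1. Their mean transcript lengths are 919 and 4042 bases.

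**Figure D3:**
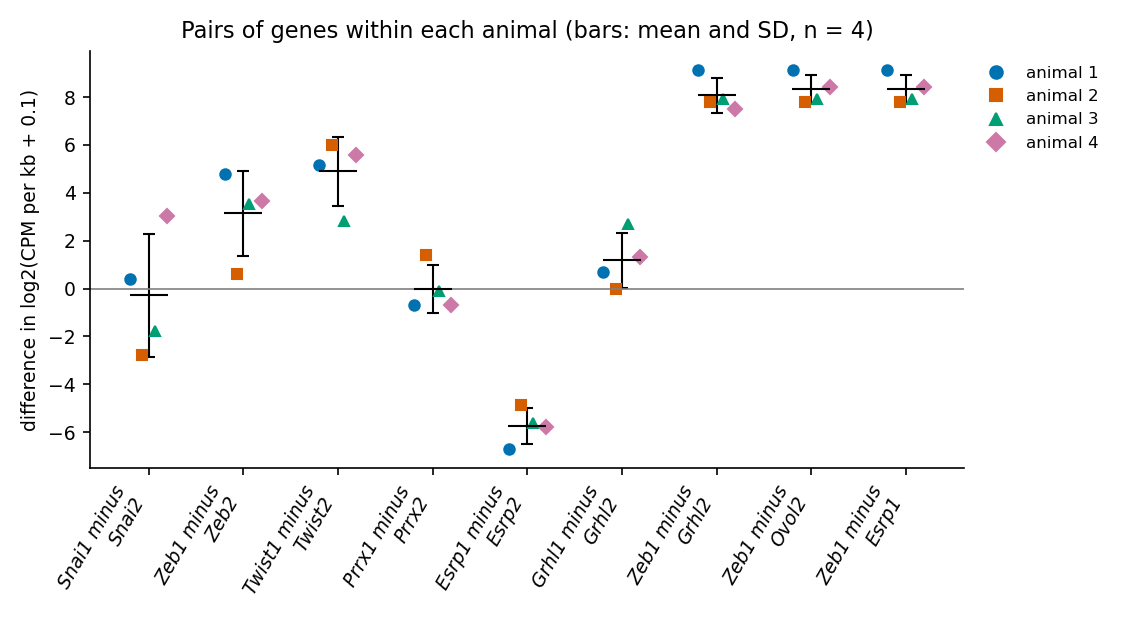
Difference in log2(CPM per kilobase + 0.1) between 2 genes in each animal, first named minus second named, with the mean and SD (n = 4) as black bars. Zeb1 lies above Zeb2 and above the 3 epithelial-side genes in all 4 animals, whereas Snai1 minus Snai2 and Prrx1 minus Prrx2 lie on both sides of 0; differences against a gene with no count are set by the pseudocount.

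Among 11 genes listed beside these families 3 (27.3%) lay above 1 CPM by edgeR's test, a share close to the 24.7% of all genes. They were Esrp2, Rbm47 and Tfcp2l1, of which Rbm47 is not a member of these families. Esrp2, the paralog of Esrp1 and likewise an epithelial splicing regulator, had 11.2, 3.01, 5.16 and 5.89 CPM in animals 1 to 4. It was above 1 CPM in every animal and highest in animal 1 (mean 6.32 ± 3.49 CPM, adjusted p = 1.97e-08, edgeR's quasi-likelihood test). Esrp1 minus Esrp2 was negative in 4 of 4 animals, and per length Esrp2 was at least 98.5-fold higher than Esrp1 over the group with mean transcript lengths and at least 40.8-fold with the longest transcripts (exact permutation p = 0.13, adjusted 0.188). Rbm47, an RNA-binding protein that also acts on splicing, had 67.7, 251, 117 and 73.2 CPM, and Tfcp2l1, of the Grainyhead superfamily, had 44.9 ± 9.92 CPM. Grhl1 had 14 counts and Prrx2 had 11, and neither passed, while Snai3, Scrt1, Scrt2, Grhl3, Ovol1 and Ovol3 had no count.

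The partners of the factors were all present. Of 18 partner and corepressor genes 18 lay above 1 CPM by edgeR's test, against 24.7% of all genes, and the median over the list was 24.9 CPM, against 3.17 CPM over the genes of the table with a count. The highest were Id3 at 1023 ± 119 CPM and Id1 at 234 ± 116 CPM, whose products bind E proteins and keep them from DNA, and the deacetylase gene Hdac1 at 124 ± 19.5 CPM. The E protein genes Tcf4, Tcf12 and Tcf3, named here after their values were seen, had 44.3 ± 17.4, 25.2 ± 2.40 and 10.5 ± 5.47 CPM. Of 11 genes that act on the stability or activity of Snail and Twist proteins 9 passed, against 24.7% of all genes. The kinase gene Gsk3b, whose product marks Snail for breakdown, led at 354 ± 34.7 CPM. Csnk2a1 had 110 ± 10.7 CPM and Lats2 had 78.1 ± 29.8 CPM. Protein levels were not measured.

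Of 17 upstream genes 13 lay above 1 CPM by edgeR's test, against 24.7% of all genes. They were led by Egr1 at 1162 ± 219 CPM, Klf4 at 329 ± 63.7 CPM, a factor known to sustain epithelial genes, and Bmp4 at 205 ± 108 CPM. All cells were digested before sorting and no undigested tissue was analysed, so the part of the isolation in these levels was not tested. Tgfb1, Notch1 and Lef1, named after their values were seen, had means under 1 CPM (0.391, 0.893 and 0.155 CPM). Hmga2, an inducer of Snail and Twist genes, had no count.

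The epithelial targets of these factors were split. Of 28 such genes 16 lay above 1 CPM by edgeR's test (14 by limma with voom weights), against 24.7% of all genes. Their median was 4.18 CPM, against 3.17 CPM over the genes of the table with a count, and 8 had a mean under 1 CPM. The keratins Krt19, Krt18 and Krt8, which form the intermediate filaments of simple epithelia, led at 2299.6 ± 954, 572 ± 45.6 and 348 ± 44.8 CPM. Cldn4, Cldn7 and Rab25, the genes of claudins of tight epithelia and of an epithelial trafficking GTPase, had no count in any animal. Named after their values were seen, Cdh1, the gene of E-cadherin, had 0.284, 0.420, 1.21 and 0 CPM, 9 counts in all, and Epcam, a surface molecule of epithelia, had 0.633, 1.11, 1.28 and 1.19 CPM. Neither passed (adjusted p = 0.997 for each, edgeR's quasi-likelihood test).

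**Figure D4:**
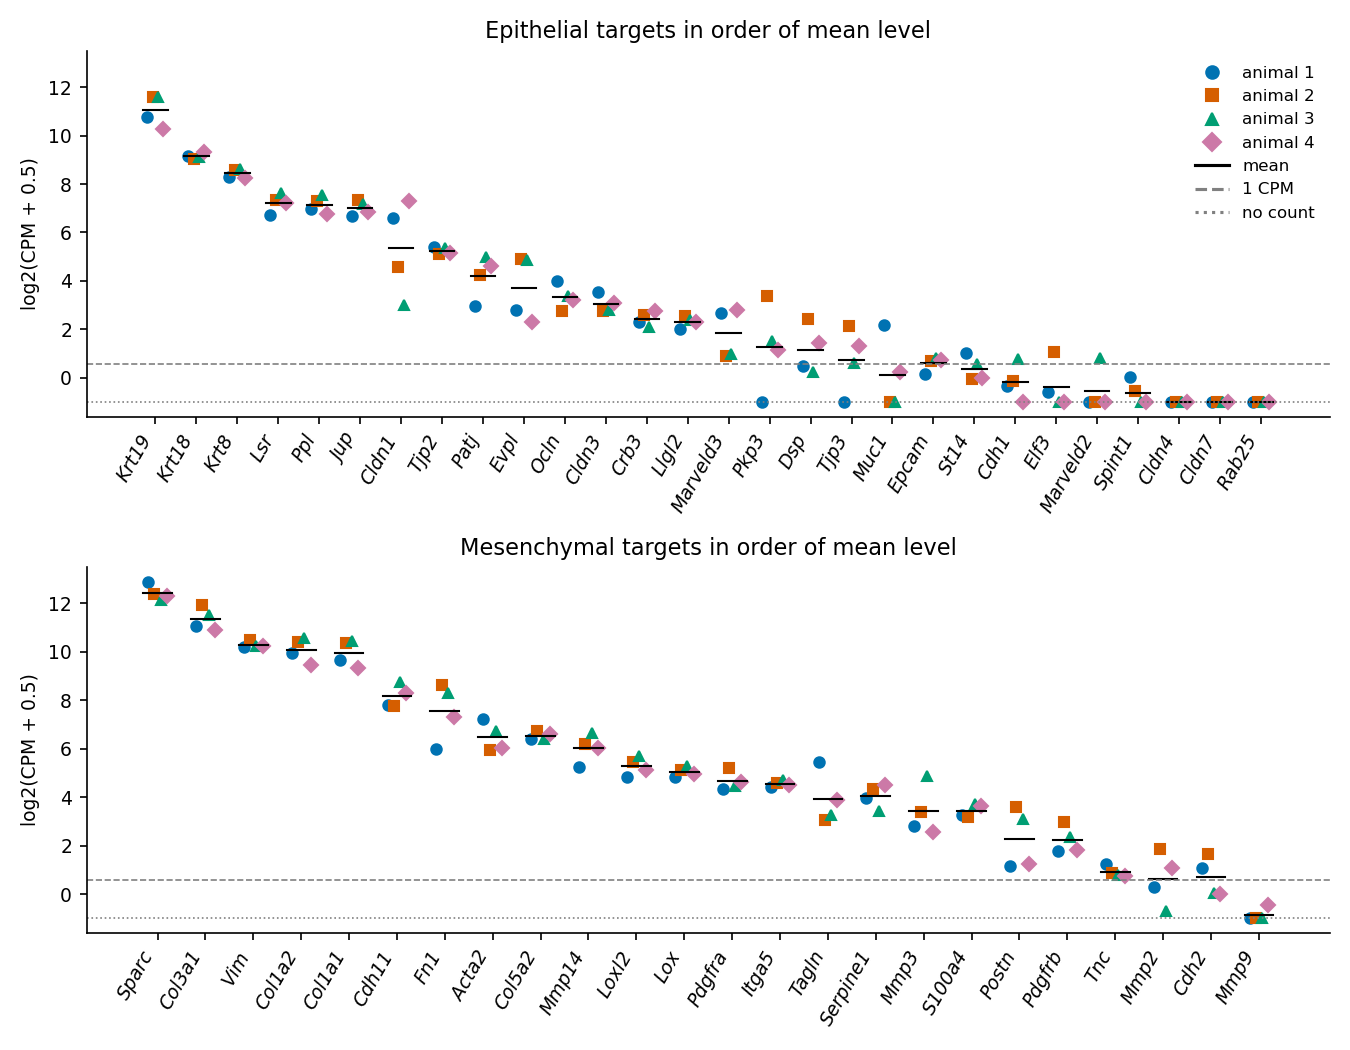
Levels of 28 epithelial targets (top) and 24 mesenchymal targets (bottom) as log2(CPM + 0.5), in order of mean CPM, with 1 marker per animal and a bar at the mean of the log2 values. The dashed line is 1 CPM and the dotted line a gene with no count: the epithelial genes run from Krt19 at 2299.6 CPM down to Cldn4, Cldn7 and Rab25 at 0, and only Mmp9 among the mesenchymal genes has a mean under 1 CPM.

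Of 24 mesenchymal targets 20 lay above 1 CPM by edgeR's test (21 by limma with voom weights), against 24.7% of all genes. The median was 29.3 CPM, against 3.17 CPM over the genes of the table with a count. The highest were Sparc, a matrix glycoprotein, at 5621 ± 1310 CPM, the collagen Col3a1 at 2741 ± 917 CPM and the filament gene Vim at 1264 ± 129 CPM. The exceptions, named after their values were seen, were Tnc, Mmp2, Cdh2 and Mmp9 at 1.42, 1.40, 1.33 and 0.0588 CPM. Cdh2, the gene of N-cadherin, had 1.61, 2.66, 0.536 and 0.519 CPM in animals 1 to 4, 23 counts in all. Cdh1 had 0.284, 0.420, 1.21 and 0 CPM, 9 counts in all. Cdh2 was thus higher in animals 1, 2 and 4 and lower in animal 3, and neither gene passed. These values are not divided by length. Both target lists were drawn up from what is known of these factors in other cells and with earlier results of these libraries in view, so their counts describe the lists and give no independent direction. The lists also overlap with those of cell types: Pdgfra is a fibroblast marker, Acta2, Tagln and Pdgfrb are smooth muscle and pericyte markers, and Krt19 is a mesothelial marker.

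The E-box of the Snail and Zeb repressors was looked for in the promoters of the targets. The letters CAGGTG or CACCTG, which are the same site read on opposite strands, were counted in the 250 bases before each start site in RefSeq promoter sequences (GRCm38.p6). Among 19142 genes of the deposited table with a promoter there, 19.4% held at least 1 such box in at least 1 promoter and 2.38% held at least 2. Of the 28 epithelial targets 19 had a promoter sequence, of which 13 held a box and 7 held 2 or more. Of the 24 mesenchymal targets 12 had one, and 0 held a box. Of the regulators 6 had one, and Snai1 alone held a box. Since many epithelial targets are known because such boxes were found in them, this count describes the list and is no independent result.

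4 of these promoters are printed to show the boxes beside the levels, with CAGGTG and CACCTG in capitals, and were chosen after their values were seen. They are RefSeq sequences (GRCm38.p6) and run 5′ to 3′ in the direction of the gene and end next to the start site, at chr3:88548280-88548529 on the minus strand for Rab25, chr17:87635729-87635978 on the plus strand for Epcam, chr5:134946935-134947184 on the minus strand for Cldn4 and chr7:30973470-30973719 on the minus strand for Lsr, the gene of a receptor of tricellular junctions.
Rab25: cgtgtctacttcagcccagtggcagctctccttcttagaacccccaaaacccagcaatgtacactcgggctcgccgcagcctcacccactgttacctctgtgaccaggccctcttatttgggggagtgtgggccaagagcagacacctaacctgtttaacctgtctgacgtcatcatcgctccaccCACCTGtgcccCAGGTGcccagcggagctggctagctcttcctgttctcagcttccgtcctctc
Epcam: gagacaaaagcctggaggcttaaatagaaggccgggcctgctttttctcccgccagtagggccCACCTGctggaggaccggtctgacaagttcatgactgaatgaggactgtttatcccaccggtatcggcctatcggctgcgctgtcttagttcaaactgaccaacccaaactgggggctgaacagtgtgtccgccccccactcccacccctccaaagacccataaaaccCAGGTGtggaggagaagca
Cldn4: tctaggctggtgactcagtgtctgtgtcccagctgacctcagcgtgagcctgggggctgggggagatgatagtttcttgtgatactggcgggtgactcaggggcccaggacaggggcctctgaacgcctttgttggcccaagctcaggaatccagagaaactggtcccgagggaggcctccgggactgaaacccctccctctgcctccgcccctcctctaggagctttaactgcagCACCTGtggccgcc
Lsr: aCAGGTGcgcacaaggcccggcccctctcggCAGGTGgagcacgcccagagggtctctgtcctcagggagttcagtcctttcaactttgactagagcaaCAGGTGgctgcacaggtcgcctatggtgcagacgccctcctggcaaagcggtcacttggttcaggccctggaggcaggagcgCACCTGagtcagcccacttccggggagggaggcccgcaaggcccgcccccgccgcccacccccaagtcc

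Rab25 and Cldn4, with 2 boxes and 1 box, had no count, and Epcam, with 2 boxes, had a mean of 1.05 ± 0.288 CPM. Lsr, with 4 boxes, had 104, 162, 198 and 148 CPM in animals 1 to 4 and was thus well above 1 CPM in every animal. Over the list, the 13 epithelial targets with a box had a median of 1.71 CPM (0 to 572 CPM), and the 6 without had a median of 5.08 CPM (0.176 to 129.7 CPM). The ranges overlap for the most part, and 3 of the 13 with a box, against 1 of the 6 without, had a mean of at least 100 CPM. A box is a match of letters, and no binding was measured.

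Zeb RNA is known to be held down by microRNAs of the miR-200 family, whose seeds, bases 2 to 8, are in capitals below. The sequences (RefSeq, GRCm38.p6) are shown because the family falls into a pair of seeds: AAUACUG in miR-200b, miR-200c and miR-429, and AACACUG in miR-200a and miR-141.
mmu-miR-200b-3p: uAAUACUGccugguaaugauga
mmu-miR-200c-3p: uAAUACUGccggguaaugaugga
mmu-miR-429-3p: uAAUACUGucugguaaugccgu
mmu-miR-200a-3p: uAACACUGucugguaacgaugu
mmu-miR-141-3p: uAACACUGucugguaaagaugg

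The 5 hairpin genes, Mir200b, Mir200c, Mir429, Mir200a and Mir141, were listed at 0 in every animal. The values are estimated counts on annotated transcripts of total RNA, and mature microRNAs were not measured.

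The transcripts on which Esrp proteins act were present, beside other splicing regulators. Of 9 known splicing targets 9 lay above 1 CPM by edgeR's test, and of 9 other splicing regulators 8 passed, against 24.7% of all genes. The targets were led by Exoc7 at 70.8 ± 5.28 CPM, Ctnnd1, the gene of p120 catenin, at 62.6 ± 7.84 CPM and Numb at 60.8 ± 18.4 CPM. The other regulators were led by Mbnl1 at 358 ± 88.6 CPM, Hnrnpm at 139 ± 21.1 CPM and Mbnl2 at 123 ± 15.4 CPM, while Rbm24 had no count. The table gives 1 value per gene, so which exons were used in the transcripts of the splicing targets was not analysed here.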

How the data were processed

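RNA-seq of sorted mesothelial cells from 4 mice was used. The authors deposited 1 table of estimated counts per gene symbol, with a column for each animal; 99.9% of the nonzero values were not whole. Per the submitters' processing notes, kallisto 0.43.1, edgeR 3.24.3, limma 3.38.3 and GRCm38.p5 were used, with no role given. How transcript values became gene values was not given in the sources used here.

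Levels are estimated counts over the column sum in CPM, as mean ± SD. For the test, estimated counts were rounded and scaled with TMM in edgeR 4.0.16 (R 4.3.3). A one-sided quasi-likelihood test of an intercept against 1 CPM was adjusted by Benjamini-Hochberg over all 48425 genes at 0.05. Alternatives used limma 3.58.1, DESeq2 1.42.0, other scaling, filters, thresholds and left-out animals. Lengths are means over GENCODE M21 transcripts. Libraries differed from each other far beyond sampling noise (chi-square per gene 11.5 to 28.9), so all were kept. Shared sequence was sought with blastn 2.17.0 at 95% identity over at least 100 bases.

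All 10 regulators are named. Of each other list the 3 highest genes, genes with no count and genes in pairs are named, with exceptions stated. The regulators and lists were chosen with earlier results of these data known.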

Additional observations from a re-analysis of the deposited data

Results flagged for a closer look

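In 68 named genes with a range over animals, the gap between the most distant animal and its nearest neighbour was set against the whole range. In 11 genes it passed the 95% limit of Dixon's test for 4 values, which chance passes in about 1 of 20 groups. The 11 cannot be set against that share, since some of the 68 genes were named after their values were seen. Ptprc, Adgre1, Mmp9 and Tcf12 are among these. Of these, 5 had counts in 1 animal only, which passes at any level and so says nothing more: Twist2 at 2.38 CPM in animal 3, Grhl2 and Mmp9 at 0.235 CPM each in animal 4, Gm10125 at 2.63 CPM in animal 4 and Adgre1 at 0.222 CPM in animal 2. The other 6 had counts in more animals. Zeb2 stood at 31.5 CPM in animal 2, with a gap of 0.945 of the range. Among genes outside the regulators, Vim stood at 1456 CPM in animal 2, Tcf12 at 28.8 CPM in animal 3, Cd79a at 5.66 CPM and Ptprc at 3.05 CPM in animal 1, and Tek, an endothelial receptor gene, at 7.80 CPM in animal 4.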

How the results depend on the processing

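Zeb1, Zeb2 and Twist1 passed under all 12 alternatives, which include thresholds of 0.5 and 2 CPM in place of 1 CPM. Twist2, Grhl2, Ovol2 and Esrp1 passed under none that gave a value. The number of regulators called was 3 with limma and voom weights and 3 at a threshold of 2 CPM, and 3 to 5 without each animal; it was 6 at 0.5 CPM, where Snai1 passed. The calls of Snai2 and Prrx1 were those lost. The 7 mesenchymal-side genes gave the same 3 with limma and voom weights and 3 to 5 without each animal. Calls over all genes ranged from 10999 to 12966. Endothelial marker calls were 1 with voom weights and 1 to 2 without each animal, and leukocyte marker calls 0 to 1. Prrx1 minus Prrx2, -0.03 as reported, was 0.088 with a pseudocount of 0.5, 1.83 when not divided by length and -0.50 to 0.20 without each animal. Snai1 minus Snai2, -0.28 as reported, was -1.38 to 0.55 without each animal. The cause of the differences between animals was not tested. The other 7 pairs kept their direction under all 8 alternatives. No paired comparison of conditions was possible because there is 1 group. At the depth of these libraries, levels under 1 CPM rest on a few counts.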

Other observations

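Of 12 markers of glandular and intestinal epithelium 3 (25%) lay above 1 CPM by edgeR's test, about the share over all genes (24.7%). Krt14, a keratin of basal cells, had 290, 337, 77.4 and 69.7 CPM in animals 1 to 4, Fxyd3 had 95.6 ± 39.5 CPM and Lgals4 had 20.0 ± 6.38 CPM. Krt5, the usual partner of Krt14, had no count, and neither had Vil1, Cdx1 and Cdx2. Of 10 smooth muscle and pericyte markers 6 passed, against 24.7% of all genes. They were led by Acta2 at 96.0 ± 42.8 CPM, Des at 24.7 ± 11.8 CPM and Tagln at 18.7 ± 16.5 CPM, and Lmod1 and Notch3 had no count. Of 10 endothelial markers 2 (20%) passed, a share close to the 24.7% of all genes. Kdr averaged 49.2 ± 14.1 CPM. Tek had 1.57, 0.602, 0.579 and 7.80 CPM in animals 1 to 4, and its list gave 1 call without animal 4 and with voom weights. Pecam1 averaged 0.940 CPM, while Cdh5, Emcn and Cldn5 had no count.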
